A study of Mus musculus with 13 samples.

Results

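The 9 genes described here belong to the NF-κB pathway: the transcription factor subunits Nfkb1, Nfkb2, Rela and Relb, the inhibitors Nfkbia and Nfkbie, the feedback regulators Tnfaip3 and Birc3, and the target gene Icam1. They were picked by name, with earlier results of these data known. Their rows are those of the count table whose Ensembl identifier carries that symbol in the mouse GRCm38 annotation. This gave 9 of 54532 genes, and each of the 9 had counts in at least 1 library. In resting cells NF-κB dimers are held in the cytoplasm by IκB proteins. Signals from cytokine receptors and from sensors of foreign nucleic acid activate IκB kinases, the IκB protein is degraded, and the dimer enters the nucleus. Many of the genes then transcribed, among them those for IκBα and the ubiquitin-editing protein A20, switch the pathway off again, so their transcripts are widely read as a record of its activity.

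The study asked how a compound that inhibits the RNA-editing enzyme ADAR1, ADAR1i-124, and the DNA methylation inhibitor 5-AZA-CdR change RNA in Yumm1.7, an established mouse cutaneous melanoma cell line whose genotype is labelled wild type. Total RNA was sequenced from cells given the solvent DMSO, 10 µM ADAR1i-124 for 12 h, 1 µM 5-AZA-CdR for 72 h, or both compounds. RNA from the same 4 treatments was digested with single-strand-specific RNase I and DNase and precipitated with J2, an antibody to double-stranded RNA, or with Z22, an antibody to the left-handed Z form. One IgG precipitation served as control. For the combination, 1 µM 5-AZA-CdR was given for 72 h before 10 µM ADAR1i-124 was added for 12 h. The treatment of the cells behind IgG is not stated. All 13 libraries come from 1 cell line with 1 library per condition, so a difference between treatments has no replicate check and no test, and intervals cover counting error only.

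Library totals over the table were 17015425 to 34571822 counts in 3 total RNA libraries and 8167960 to 15324595 in the 9 precipitated ones. The fourth total RNA library, that of the combination, held 1245894 counts. Of its 500 highest genes, 359 lay over a gene on the other strand that had at least 1000 counts in the DMSO library, against 19 of 500 in DMSO itself, so its counts follow the other strand and it was not used. The counts in DMSO thus mostly follow 1 strand, although the strand setting is not stated. The Z22 DMSO library stood apart: the single gene Gm42418 took 34.9% of its counts, against 10.6% to 18.9% in the other precipitated libraries. Mitochondrial genes took 1.67% of its counts, against 4.94% to 7.25% in those libraries. The pigment genes Mlana and Tyr, which mark the melanocyte lineage, had no counts in the 3 total RNA libraries, while Mitf was at 20.3 to 33.1 CPM and Braf at 99.9 to 115.1 CPM there. Of the 8 melanoma line markers read, 4 were at 0 with DMSO, Dct and S100b included. With ADAR1i-124 5 were at 0, Sox10 included, and with 5-AZA-CdR 2. More than 3 counts were held by 2, 3 and 4 of the 8 in that order. CPM denotes counts scaled to a library total of 1e6.

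The 9 genes were matched to promoter windows of RefSeq (build GRCm38.p6), 300 bases reaching from 250 before to 50 after a transcript start. Windows were given for 7 of the 9 genes, and none for Nfkb1 and Relb. The binding site of NF-κB is known to begin with a run of G and to end with a run of C, and the simple pattern GGNNNTTCC was searched on both strands. It was present in 18.5% of 32851 windows of the mouse genome, and in 8 of 10 windows of the 7 genes. A match was present for 5 genes, Nfkb2, Nfkbia, Nfkbie, Tnfaip3 and Icam1, and absent from the windows of Rela and Birc3. Over the genome 5584 of 27025 genes, 20.7%, had a match in at least 1 window. Windows of 1 gene can overlap, and 1 match of Nfkb2 lay in 2 of its windows. One or 2 matches are shown for each gene that had one, so that the letters matched can be seen. Each is written 5′ to 3′ on the strand of the gene, with the match in capitals and 10 bases on either side.
Nfkb2, chr19:46304688-46304716 (+), 39 bases before the start: ggatcgtcacGGGAATTCCccccctcggg
Nfkbia, chr12:55492807-55492835 (-), 178 bases before the start: ctggtcgggaGGACTTTCCagccactcag
Nfkbia, chr12:55492658-55492686 (-), 29 bases before the start: tgactggcttGGAAATTCCccgcgcctga
Nfkbie, chr17:45555585-45555613 (+), 105 bases before the start: cagcaaacagGGGGATTCCggaggggcgg
Tnfaip3, chr10:19015416-19015444 (-), 24 bases before the start: tcacgtgactGGAATTTCCatcggaaatc
Icam1, chr9:21015777-21015805 (+), 153 bases before the start: acttcagtttGGAAATTCCtagatcgcag
These are matches of letters. Binding was not measured, and a window without a match says only that these letters are not in it.

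In total RNA the 9 genes differed in level, here as CPM per kb of exon so that genes of unlike length can be compared. With DMSO, Nfkbia (ENSMUSG00000021025) was the highest at 33.8 CPM per kb. Nfkb1 (ENSMUSG00000028163) at 15.7 and Rela (ENSMUSG00000024927) at 14.8 CPM per kb followed, and their counting intervals overlapped, from 15.1 to 16.2 and from 13.8 to 15.9. Below them came Nfkb2 (ENSMUSG00000025225) at 8.54, Birc3 (ENSMUSG00000032000) at 5.94 and Relb (ENSMUSG00000002983) at 3.28 CPM per kb. Nfkbie (ENSMUSG00000023947) at 1.78 and Tnfaip3 (ENSMUSG00000019850) at 1.204 CPM per kb were low, and Icam1 (ENSMUSG00000037405), with 2 counts, was at 0.027. All neighbours other than Nfkb1 and Rela were apart beyond counting error. With ADAR1i-124 the order of the subunits was different: Rela at 35.9 and Nfkb2 at 30.8 CPM per kb stood above Nfkb1 at 15.6. Tnfaip3 at 4.51 and Birc3 at 4.36 CPM per kb then overlapped in their intervals. With 5-AZA-CdR, Nfkbia reached 113.5 CPM per kb, and Rela at 28.6 and Nfkb2 at 20.8 were again above Nfkb1 at 17.9. In that library 2 pairs of neighbours overlapped, Birc3 with Relb and Nfkbie with Tnfaip3.

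**Figure D1:**
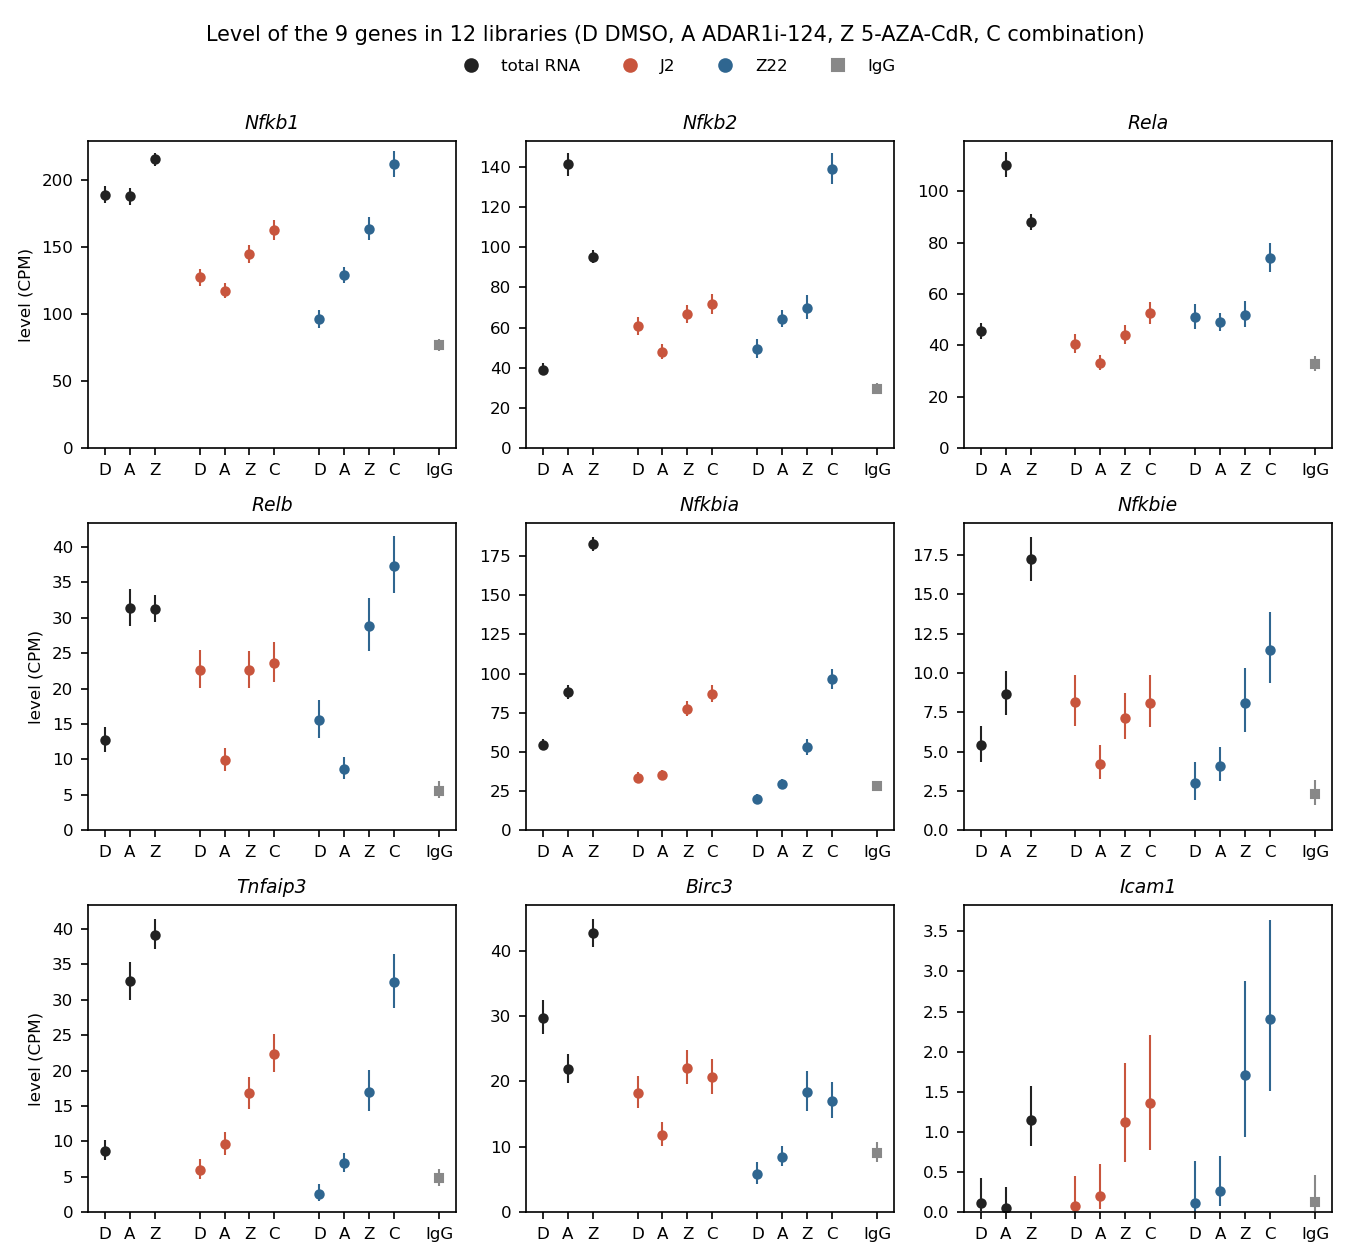
Level in CPM, on a linear axis from 0, of each of the 9 genes in 12 libraries; points are single libraries (black circles total RNA, red circles J2, blue circles Z22, grey squares IgG) and bars are 95% counting intervals. In total RNA, Nfkb2 is highest with ADAR1i-124 at 141.2 CPM and Nfkbia with 5-AZA-CdR at 182.7 CPM, while the highest Z22 value of Tnfaip3 is 32.5 CPM, with the combination.

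The first comparison asked what 12 h of ADAR1i-124 did to the total RNA of these genes. The subunit genes Nfkb2, Rela and Relb and the feedback gene Tnfaip3 were each more than 2-fold higher than with DMSO, Nfkbia and Nfkbie were higher by less than 2-fold, Nfkb1 was nearly level and Birc3 was lower. Changes are given as log2 of CPM + 0.5, an offset that shrinks the values of low genes, less the median change of the genes that average 1 CPM or more over the pair. Each interval is the exact 95% binomial interval of the counts. Of the 9 genes 8 averaged 1 CPM or more, all but Icam1. Of these 8, 4 were at least 2-fold higher, against 8.93% of 13693 genes under the same filter, and 0 were at least 2-fold lower, against 7.26%. The median over the 9 genes was 0.78, where that of all genes is 0 by construction.

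Nfkb2, on chromosome 19 from 46304320 to 46312385 on the plus strand, encodes p100, the precursor of the p52 subunit of the non-canonical pathway. It was at 39.1 CPM with DMSO and 141.2 CPM with ADAR1i-124, from 666 and 2487 counts. Its change was 1.93 (interval 1.82 to 2.07), a 3.81-fold rise that placed it at the 97.7th percentile of all genes. The gene is overlapped by Psd and AC114539.1 on the other strand, whose reads are apart from its own where counts follow 1 strand. Rela, on chromosome 19 from 5637483 to 5648130, encodes p65, the main activating subunit of the canonical pathway. It rose from 45.5 to 110.2 CPM, a change of 1.36 (1.25 to 1.49). Relb, on chromosome 7 from 19606217 to 19629438 on the minus strand, encodes the partner of p52. It rose from 12.7 to 31.3 CPM, a change of 1.36 (1.16 to 1.62), so the intervals of Rela and Relb overlapped. Nfkb1, on chromosome 3 from 135584655 to 135691547 on the minus strand, encodes p105, the precursor of p50. Its level was 189.1 CPM with DMSO and 187.8 CPM with ADAR1i-124, a change of 0.08 (0.01 to 0.15), and among the 4 subunit genes it was the one that stayed within 2-fold. On library totals its change was -0.0095, so its direction depends on the centring. Gm43430 overlaps it on the same strand, and reads of that overlap cannot be assigned with certainty.

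Nfkbia, on chromosome 12 from 55489410 to 55492647 on the minus strand, encodes IκBα, which retains p65-containing dimers in the cytoplasm. It was at 54.4 CPM with DMSO and 88.0 CPM with ADAR1i-124, a change of 0.78 (0.67 to 0.91). Nfkbie, on chromosome 17 from 45555703 to 45563169, encodes the related inhibitor IκBε. It was at 5.41 and 8.63 CPM, from 92 and 152 counts, a change of 0.72 (0.38 to 1.16). Both inhibitors thus lay above the all-gene centre by more than counting error and below the 2-fold line. Tnfaip3, on chromosome 10 from 19000910 to 19015657 on the minus strand, encodes A20, which removes activating ubiquitin chains from signaling adaptors. It rose from 8.70 to 32.6 CPM, a change of 1.94 (1.73 to 2.27), the largest of the 9 together with Nfkb2, whose interval overlapped. Birc3, on chromosome 9 from 7848699 to 7873186 on the minus strand, encodes the ubiquitin ligase cIAP2. It went the other way, from 29.7 to 21.8 CPM, a change of -0.34 (-0.55 to -0.16). Icam1, on chromosome 9 from 21015985 to 21028817, encodes an adhesion molecule for leukocytes. It had 2 counts with DMSO and 1 with ADAR1i-124, a centred ratio of 0.96 (0.0087 to 9.88) that shows no direction. Gm47079 overlaps it on the other strand.

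Other values moved in the same pair of libraries. The summed level of the 6 fibroblast markers was 238.9 CPM with DMSO and 388.8 CPM with ADAR1i-124, and the markers went different ways. Col1a2 and Pdgfra went from 60.2 and 5.23 to 329.3 and 25.4 CPM, Pdgfrb from 169.2 to 30.6 CPM and Dcn from 0.411 CPM to 0, while Col1a1 was at 3.88 and 3.58 CPM and Lum at 0 in both. The 4 endothelial markers summed to 4.23 and 18.5 CPM, mostly Cdh5 at 3.70 and 17.8 CPM. The Y-linked gene Ddx3y was at 3.35 and 48.9 CPM. The part of these differences in the rises above was not tested. In bulk RNA, fewer cells of a type and less RNA per cell cannot be told apart. The summed level of 8 leukocyte markers was 0.353 and 1.14 CPM, with 6 and 5 of the 8 at 0, Ptprc at 0 with DMSO. The reference genes Gapdh and Hprt changed by -0.02 and 0.08, and Actb by 0.44.

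After 72 h of 5-AZA-CdR all 9 genes lay above the centre of all genes in total RNA. Tnfaip3 and the inhibitor gene Nfkbia changed by more than Nfkb2 and Relb beyond counting error, while the interval of the other inhibitor gene, Nfkbie, overlapped those of both. At least 2-fold higher were 5 of the 8 genes averaging 1 CPM or more, against 15.7% of 14391 genes, and 0 of the 8 were at least 2-fold lower, against 9.91%. Icam1, under that filter, was also past the line, on few counts. The median of the 9 was 1.21. Each of these values rests on the same DMSO library as the ADAR1i-124 values, so the 2 comparisons are not independent.

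Nfkbia was at 182.7 CPM with 5-AZA-CdR against 54.4 CPM with DMSO, from 6318 and 925 counts, a change of 1.68 (1.59 to 1.79). Nfkbie was at 17.2 against 5.41 CPM, a change of 1.52 (1.29 to 1.94). For both inhibitors the value with 5-AZA-CdR exceeded that with ADAR1i-124, with counting intervals apart. Tnfaip3 was at 39.2 against 8.70 CPM, a change of 2.05 (1.86 to 2.37). Among the subunits, Nfkb2 was at 95.3 against 39.1 CPM, a change of 1.21 (1.10 to 1.35). Relb, at 31.2 against 12.7 CPM, changed by 1.198 (1.02 to 1.45), and its CPM was the same as with ADAR1i-124 within counting error. Rela, at 88.0 against 45.5 CPM, changed by 0.88 (0.78 to 1.01) and stayed within 2-fold, as did Nfkb1 at 215.4 against 189.1 CPM, a change of 0.13 (0.07 to 0.19). Birc3 was at 42.6 against 29.7 CPM, a change of 0.45 (0.31 to 0.61). Icam1 had 40 counts, 1.16 CPM, against 2 counts, 0.118 CPM. Its centred ratio with the pseudocount was 2.57 and the counting interval of the ratio ran from 2.45 to 80.6, so the direction holds within counting error while the size is poorly known.

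Along with these rises, the summed level of the 6 fibroblast markers was 824.9 CPM with 5-AZA-CdR against 238.9 CPM with DMSO, and Dcn went from 0.411 to 129.4 CPM. The sum does not show which way each of the 6 went. The 4 endothelial markers summed to 83.3 against 4.23 CPM. The 8 leukocyte markers summed to 4.92 against 0.353 CPM, with Cd3e and Nkg7 at 0. Xist was at 122.9 against 0.294 CPM and Ddx3y at 36.7 against 3.35 CPM. The reference genes Actb and Ppia changed by -1.40 and -1.39, Gapdh by -0.30. The part of these shifts in the NF-κB values was not tested.

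**Figure D2:**
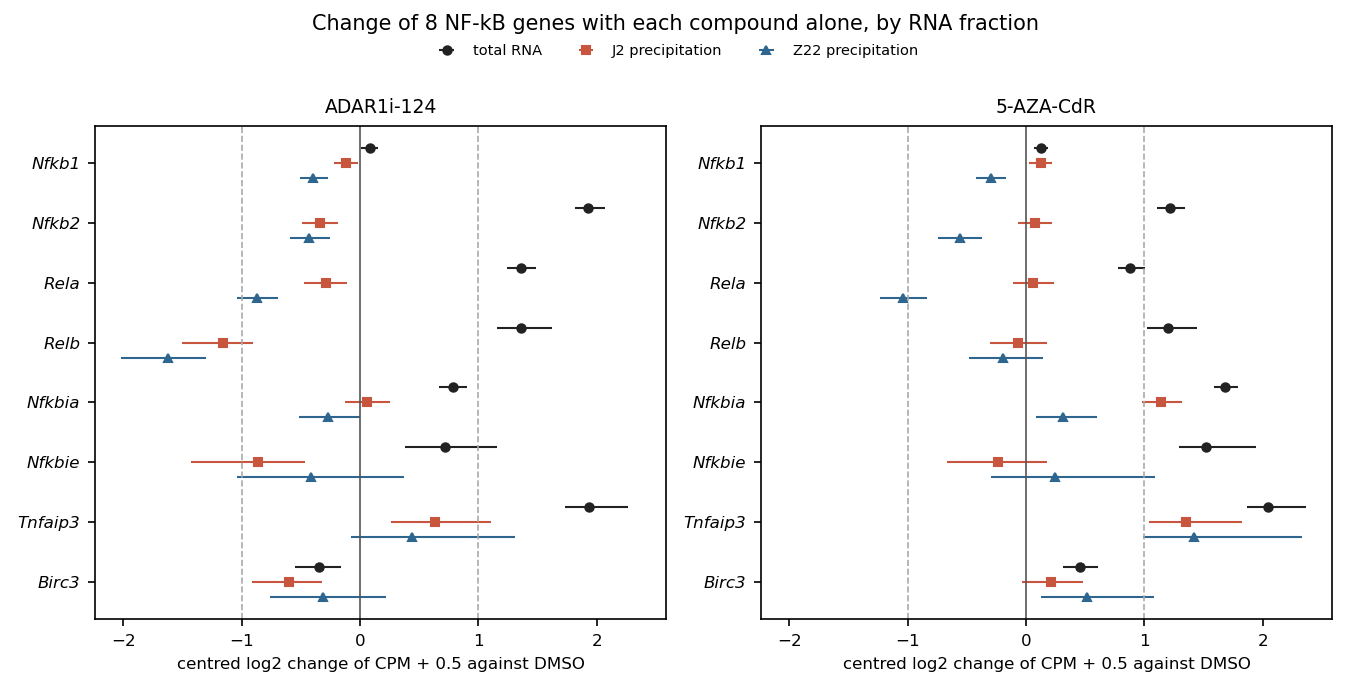
Centred log2 change against DMSO with ADAR1i-124 (left) and 5-AZA-CdR (right) for 8 genes in total RNA (black circles), J2 (red squares) and Z22 (blue triangles); bars are 95% counting intervals and dashed lines mark 2-fold. Icam1 is left out because it averages under 1 CPM. With ADAR1i-124 the total RNA values of Nfkb2, Rela, Relb and Tnfaip3 lie right of the 2-fold line and the J2 and Z22 values of the 3 subunits lie left of 0, where on library totals the Z22 value of Nfkb2 is 0.38.

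To see whether other genes of the pathway moved as well, a list of 45 further genes, ordered by role, was read in the same libraries, and 43 of them averaged 1 CPM or more in each total RNA comparison. With ADAR1i-124, 6 were at least 2-fold higher, 2 at least 2-fold lower and 35 in between, and the median of all 45 was 0.27. With 5-AZA-CdR, 11 were higher, 1 was lower and 31 were in between, and the median was 0.51. Bcl3 in both counts of higher genes, and Cd40 in the second, averaged 1 CPM or more only through the treated library, since they were under 1 CPM with DMSO, so nothing is read from their part in the counts. The background shares are those given above, 8.93% and 7.26% with ADAR1i-124 and 15.7% and 9.91% with 5-AZA-CdR.

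Of 18 receptors and adaptors, 2 were higher and 1 lower with ADAR1i-124. Traf1, an adaptor of TNF receptors, went from 1.23 to 11.01 CPM, a change of 2.82 (2.60 to 3.97), and Tnfrsf12a, the receptor for TWEAK, from 74.9 to 170.2 CPM, a change of 1.27 (1.18 to 1.37). Traf5, another adaptor, fell from 16.5 to 6.47 CPM, a change of -1.19 (-1.58 to -0.94). With 5-AZA-CdR, 2 receptors and adaptors were higher and 0 lower: Traf1 at 14.7 CPM changed by 3.07 (2.89 to 4.22) and Cd40, a receptor of the non-canonical pathway, went from 0.882 to 9.08 CPM, a change of 2.73 (2.56 to 4.16). None of 6 kinases passed 2-fold with ADAR1i-124. Ikbke, which encodes the IκB kinase-related IKKε, went from 43.7 to 213.3 CPM with 5-AZA-CdR, a change of 2.21 (2.12 to 2.34), and was 1 of 2 kinases past the line.

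Of the 5 other REL and IκB genes, 2 were higher in each comparison. Nfkbib, which encodes IκBβ, was at 7.23 CPM for DMSO, 46.1 for ADAR1i-124 and 16.3 for 5-AZA-CdR, and its change with ADAR1i-124 was 2.69 (2.49 to 3.05). Bcl3, which encodes a nuclear IκB protein that binds p50 and p52, was at 0.764, 3.46 and 33.9 CPM in the same order. Its changes were 1.74 (1.39 to 3.26) and 4.71 (4.63 to 6.32), from 13 counts with DMSO. Nfkbib went the other way with ADAR1i-124 in precipitated RNA, from 23.0 to 12.1 CPM in J2 and from 36.3 to 13.0 CPM in Z22. Among 16 other feedback regulators and targets, Gadd45b, a stress-induced gene, went from 3.88 to 10.8 CPM with ADAR1i-124, a change of 1.46 (1.16 to 2.001), and the early response gene Ier3 from 126.0 to 284.7 CPM, a change of 1.26 (1.19 to 1.34). Birc2, which encodes cIAP1, fell from 31.2 to 14.0 CPM, a change of -1.04 (-1.29 to -0.85), and was the 1 gene of this list at least 2-fold lower. With 5-AZA-CdR, 5 of this list were higher, among them the A20-binding proteins Tnip3, from 4.29 to 30.2 CPM, a change of 2.62 (2.41 to 3.12), and Tnip1, from 41.3 to 120.2 CPM, a change of 1.47 (1.37 to 1.60). Ier3 at 521.5 CPM changed by 1.98 (1.92 to 2.05) and Zc3h12a, which encodes an RNase that degrades inflammatory transcripts, by 1.24 (1.10 to 1.42). Vcam1, an adhesion molecule like Icam1, fell from 273.7 to 137.4 CPM, a change of -1.05 (-1.11 to -0.996). Tnf, the cytokine gene at the head of the pathway, had 0 counts for DMSO, 1 for ADAR1i-124 and 43 for 5-AZA-CdR, where fewer than 3 counts are taken as not detected.

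**Figure D3:**
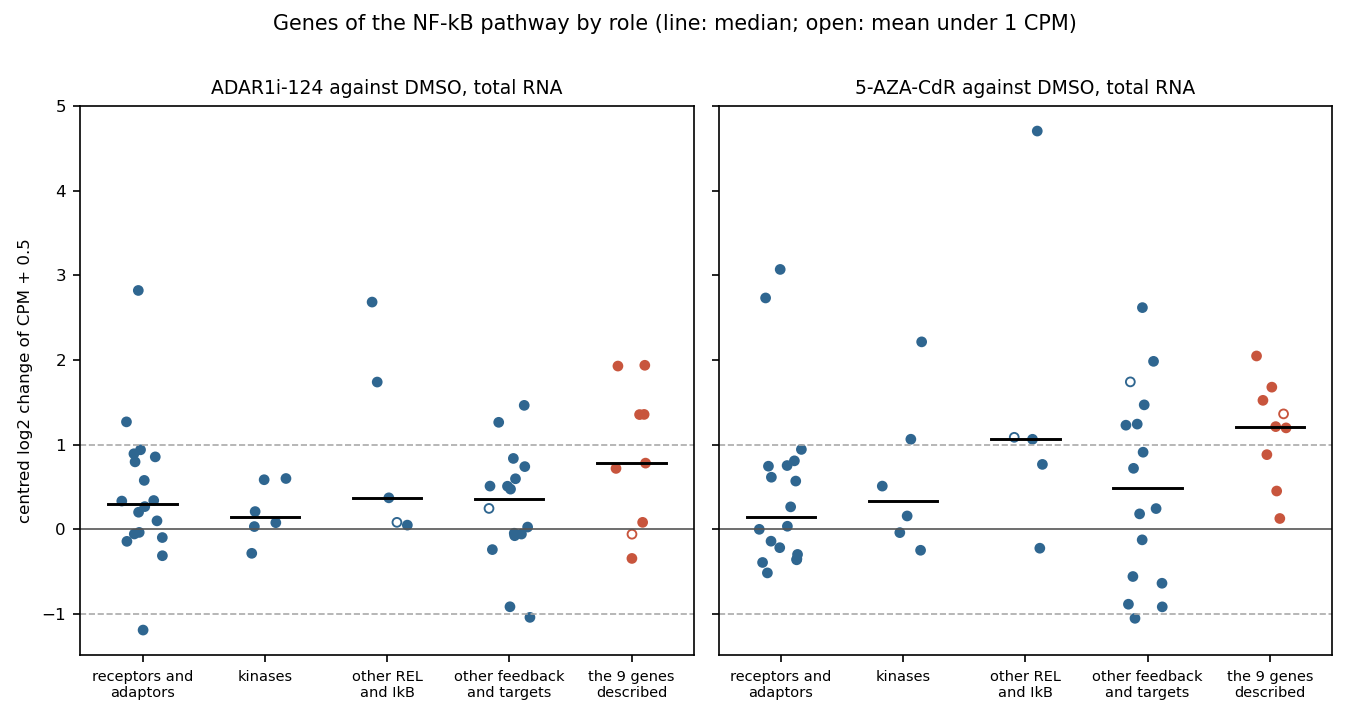
Centred log2 change in total RNA of 45 further NF-κB pathway genes by role (blue) and of the 9 genes described (red), with ADAR1i-124 (left) and 5-AZA-CdR (right) against DMSO; each point is 1 gene, black lines are medians over all genes of a list, dashed lines mark 2-fold and open points average under 1 CPM. The median of the 9 genes is 0.78 on the left and 1.21 on the right.

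The precipitated libraries were then read for the same treatments. J2 libraries hold the RNase I-resistant RNA that bound the antibody, so their values are levels of precipitated fragments and not of transcripts. With ADAR1i-124, none of the 8 genes averaging 1 CPM or more was at least 2-fold higher in J2 RNA, against 7.37% of 13522 genes, and 1 was at least 2-fold lower, against 10.8%. That gene was Relb. The median over the 9 genes was -0.29. Relb was at 22.7 CPM with DMSO and 9.86 CPM with ADAR1i-124 in J2 RNA, from 276 and 142 counts, a change of -1.16 (-1.503 to -0.90), opposite in direction to its 1.36 in total RNA. Nfkb2, at 60.8 and 48.1 CPM, changed by -0.34 (-0.49 to -0.19), and Rela, at 40.6 and 33.2 CPM, by -0.29 (-0.48 to -0.11). Nfkb1 changed by -0.12 (-0.22 to -0.02). The lower quartile of this change over all genes was -0.47. Against the IgG control, Rela had a centred log2 ratio of 0.31 with DMSO and 0.02 (-0.16 to 0.20) with ADAR1i-124 in J2 RNA. All 4 subunits were thus lower in the J2 library of ADAR1i-124 than in that of DMSO, beyond counting error. Of the 4 subunits, only Relb lay below that quartile, so the falls of the others were within the usual spread of genes.

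Nfkbie was lower as well, at 8.13 and 4.24 CPM, a change of -0.87 (-1.42 to -0.47), and Birc3, at 18.2 and 11.9 CPM, changed by -0.60 (-0.91 to -0.32). Nfkbia was level at 33.5 and 35.0 CPM, a change of 0.06 (-0.13 to 0.26). Tnfaip3 was the exception, at 5.99 and 9.59 CPM from 73 and 138 counts, a change of 0.63 (0.26 to 1.11). It was the 1 gene of the 9 above the centre beyond counting error in J2 RNA as well as in total RNA. Of the 43 pathway genes averaging 1 CPM or more, 0 passed the 2-fold line upward and 3 downward, Bcl3, Ikbke and Tnip2, of which Bcl3 averaged 1 CPM or more only through the DMSO library.

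The 2 kinds of library carry other differences between the same treatments. Ddx3y was at 26.4 CPM with DMSO and 1.46 CPM with ADAR1i-124 in J2 RNA, and at 3.35 and 48.9 CPM in total RNA. The 6 fibroblast markers summed to 478.6 and 61.5 CPM in J2 RNA and to 238.9 and 388.8 CPM in total RNA. Ddx3y thus turned direction between the 2 kinds of library along with the subunit genes. Whether the total and precipitated libraries of a treatment came from 1 culture is not stated, and the part of these differences in the opposite directions was not tested. With 5-AZA-CdR, Ddx3y was at 36.7 CPM in total RNA and 1.35 CPM in J2 RNA. Opposite directions were common over all genes: of 12344 genes averaging 1 CPM or more in each kind of library, 42% went opposite ways with ADAR1i-124 between at least 2 of total, J2 and Z22 RNA beyond counting error, as did 5 of the 8 NF-κB genes under the same filter. With 8 genes, no difference from that share is read.

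With 5-AZA-CdR, the J2 library had 2 of the 8 genes averaging 1 CPM or more at least 2-fold higher, Nfkbia and Tnfaip3, against 7.81% of 14007 genes, and 0 at least 2-fold lower, against 6.6%. Over the 9 the median was 0.12. Nfkbia was at 77.4 against 33.5 CPM, a change of 1.14 (0.98 to 1.32). Tnfaip3 was at 16.8 against 5.99 CPM, a change of 1.35 (1.04 to 1.83). Both were more than 2-fold higher in total RNA as well. Icam1, under the filter, had 15 counts against 1, a ratio of 2.68 (2.03 to 555.2). The subunits Nfkb1, Nfkb2, Rela and Relb changed by 0.12, 0.07, 0.06 and -0.07, and only that of Nfkb1 was apart from 0 by counting error. Nfkbie, 1.52 in total RNA, was at -0.23 (-0.67 to 0.18) in J2 RNA. Birc3 changed by 0.21 (-0.04 to 0.48). The pathway list had 6 genes higher and 1 lower of the 44 averaging 1 CPM or more, and Traf1 had the largest change, 2.69. Tnf, 1 of the 6, averaged 1 CPM or more only through the 5-AZA-CdR library.

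With the combination, J2 RNA again had Nfkbia and Tnfaip3 at least 2-fold higher than DMSO, 2 of the 8 genes averaging 1 CPM or more against 6.97% of 14158 genes, and 0 of the 8 lower, against 4.92%. The median of the 9 was 0.25. Nfkbia was at 87.2 CPM, a change of 1.26 (1.11 to 1.44), and Tnfaip3 at 22.4 CPM, a change of 1.71 (1.41 to 2.19). Icam1 had 16 counts and was past the line too. The other 6 genes were within -0.11 and 0.26. Set directly against 5-AZA-CdR alone, the combination moved none of the 9 past 2-fold in J2 RNA, against 1.26% of 14196 genes higher and 0.747% lower, and the median over the 9 was 0.12. By the stated times the combination also had 12 h more in culture, which cannot be told apart from the added compound. The largest change was that of Tnfaip3, 0.36 (0.10 to 0.63), and the smallest in size that of Relb, 0.02 (-0.22 to 0.26). In the same J2 libraries, in the order DMSO, 5-AZA-CdR and combination, the 6 fibroblast markers summed to 478.6, 70.0 and 117.4 CPM, with Lum at 0 in each, and the 4 endothelial markers to 8.95, 61.9 and 61.4 CPM. Xist was at 0.492, 258.7 and 333.1 CPM and Ddx3y at 26.4, 1.35 and 5.01 CPM. The part of these differences in the NF-κB values was not tested.

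Z22 RNA asked the same of RNA in the Z form. On library totals the median of all genes was 0.81 to 1.06 above the Z22 DMSO library in the 3 comparisons with it, and with the 20 genes of highest share left out of the totals it was still 0.37 to 0.59 above. Changes of single genes are given relative to the first of these shifts, and the direction of several rests on it. The markers differed between the same libraries: in the order DMSO, ADAR1i-124, 5-AZA-CdR, then both compounds, the 6 fibroblast markers summed to 1184.0, 180.4, 77.7 and 144.3 CPM, with Lum at 0 in each. The 4 endothelial markers summed to 7.33, 4.37, 32.2 and 26.8 CPM, and the 8 leukocyte markers to between 0.273 and 1.86 CPM with 4 to 6 of them at 0. Ddx3y was at 19.8, 8.32, 0 and 2.52 CPM, and Xist at 0, 0.955, 264.3 and 189.5 CPM. The part of these differences in the Z22 values of the NF-κB genes was not tested. With ADAR1i-124, 0 of the 8 genes averaging 1 CPM or more were at least 2-fold higher, against 17.6% of 12799 genes, and 1 of the 8, Relb, was at least 2-fold lower, against 17.5%. The median over the 9 was -0.41, and on library totals without the shift it was 0.40. Relb was at 15.6 CPM with DMSO and 8.66 CPM with ADAR1i-124, from 136 and 127 counts. Its change was -1.62 (-2.02 to -1.30), lower also on library totals, where it was -0.81. On library totals 1 of the 9 was past 2-fold as well, but that gene was Tnfaip3, higher with ADAR1i-124, and not Relb. Rela, at 51.0 and 49.0 CPM, changed by -0.87 (-1.04 to -0.70), Nfkb2 by -0.43 and Nfkb1 by -0.39, and the last 2 were higher on library totals, at 0.38 and 0.42. Between the libraries as labelled, Relb was therefore lower with ADAR1i-124 in both precipitations and higher in total RNA.

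Tnfaip3 had 23 counts in the Z22 DMSO library, 2.64 CPM, and 102 counts, 6.96 CPM, with ADAR1i-124, a change of 0.44 (-0.07 to 1.31). With 5-AZA-CdR it was at 17.0 CPM, a change of 1.42 (0.99 to 2.34). It was the 1 gene of the 8 averaging 1 CPM or more at least 2-fold higher in that comparison, against 18.4% of 13716 genes, and Rela, at -1.03 (-1.23 to -0.84), was the 1 at least 2-fold lower, against 19.3%. The level of Rela in Z22 RNA was 51.0 CPM with DMSO and 51.9 CPM with 5-AZA-CdR, and on library totals its change was 0.03. Nfkb1 and Nfkb2 changed by -0.30 and -0.56, and by 0.76 and 0.50 on library totals. The median over the 9 was 0.24, and 1.30 on library totals, where 5 of the 9 were past 2-fold. Nfkbia was at 20.2 and 53.1 CPM, a change of 0.32 (0.08 to 0.60), and Birc3 at 5.84 and 18.4 CPM, a change of 0.51 (0.12 to 1.08).

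With the combination, Z22 RNA had the highest CPM of 8 of the 9 genes among the 4 Z22 libraries, as it had for 21.1% of 13709 genes averaging 1 CPM or more over the 4. Birc3, at 17.1 CPM, was the exception, against 18.4 CPM with 5-AZA-CdR, where the counting intervals overlapped. After centring, as log2 ratios to the IgG library, the exception was Rela instead, at 1.15 with the combination and 1.45 with DMSO, while Birc3 was at 0.86 with the combination and 0.79 with 5-AZA-CdR, and 18.7% of the 13709 genes were highest with the combination. Icam1 is among the 8 in both rankings. It averaged 1 CPM or more over the 4 only through the libraries given 5-AZA-CdR, so nothing is read from its part. Against DMSO, Rela changed by -0.28 (-0.45 to -0.10) and on library totals by 0.54. Icam1 averaged 1 CPM or more here through the combination library alone, so it is left out of the count. Of the other 8 genes, 2 were at least 2-fold higher than with DMSO, Nfkbia and Tnfaip3, against 18.1% of 13276 genes, and 0 were lower, against 17.6%. The median of the 9 was 0.66. On library totals 8 of the 9 were past 2-fold and the median was 1.48, and 6 of the 9 were with the 20 genes of highest share left out of the totals. Tnfaip3 was at 32.5 CPM from 297 counts, a change of 2.57 (2.19 to 3.48), and Nfkbia at 96.3 CPM, a change of 1.41 (1.201 to 1.68). Icam1 had 22 counts against 1, a ratio of 2.68 (1.92 to 490.8). Nfkb2 was at 139.0 CPM, a change of 0.66 (0.51 to 0.83).

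Setting the combination against 5-AZA-CdR alone avoids the DMSO library. By the stated times it also sets 12 h more in culture, with ADAR1i-124, against 72 h of 5-AZA-CdR. Added time and added compound cannot be told apart. In Z22 RNA all 9 genes were then above the centre of all genes, with a median of 0.66. At least 2-fold higher were 3 of 9, against 3.54% of 14365 genes, and 0 of 9 were lower, against 4.7%. Nfkb2 was at 139.0 against 70.0 CPM, a change of 1.17 (1.03 to 1.32). Tnfaip3, at 32.5 against 17.0 CPM, changed by 1.09 (0.82 to 1.42), and Nfkbia, at 96.3 against 53.1 CPM, by 1.03 (0.87 to 1.21). Rela, Relb and Nfkb1 followed at 0.69, 0.54 and 0.55, each apart from 0 by counting error, and Birc3 at 0.08 (-0.26 to 0.41) was not. On library totals without the shift of -0.18, none of the 9 reached 2-fold and the median was 0.48. In the pathway list, 6 of the 44 genes averaging 1 CPM or more passed 2-fold upward and 0 downward, Tnip3 the highest at 12.9 against 2.69 CPM.

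**Figure D4:**
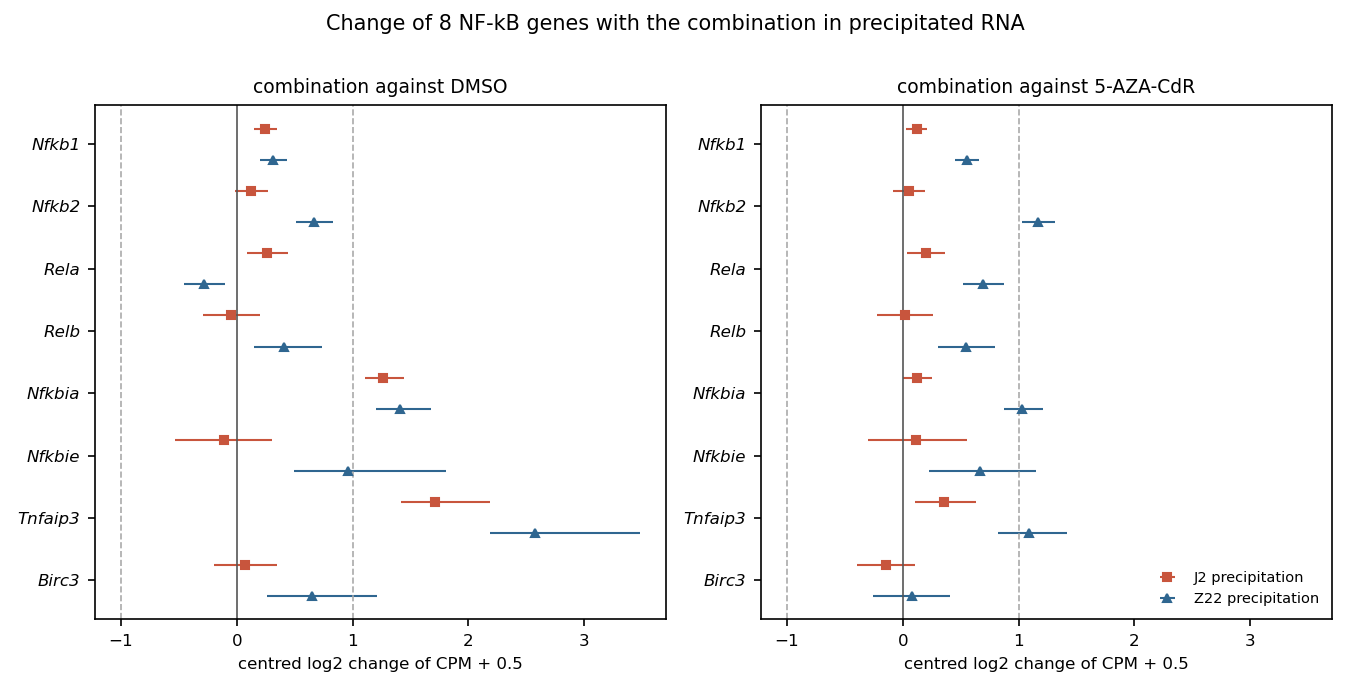
Centred log2 change with the combination against DMSO (left) and against 5-AZA-CdR (right) for 8 genes in J2 (red squares) and Z22 (blue triangles) RNA; bars are 95% counting intervals, dashed lines mark 2-fold and Icam1 is left out for its few counts. In the right panel the J2 values lie between -0.14 and 0.36 and the Z22 values between 0.08 and 1.17.

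The IgG library gives the background of precipitation. Nfkb1 had 76.9 CPM there, Rela 32.9, Nfkb2 29.6, Nfkbia 28.4, Birc3 9.14, Relb 5.61, Tnfaip3 4.83 and Nfkbie 2.28 CPM, and Icam1 had 2 counts. With DMSO, Relb had a centred log2 ratio to IgG of 1.93 (1.66 to 2.38) in J2 and 2.22 (1.90 to 2.71) in Z22, the highest of the 9 in each, with intervals that overlapped those of Nfkbie and of the few counts of Icam1. With ADAR1i-124 it was at 0.77 (0.42 to 1.22) and 0.63 (0.27 to 1.08). Rela stood lowest of the 4 subunits in J2, at 0.31 for DMSO, 0.02 for ADAR1i-124, 0.37 for 5-AZA-CdR and 0.54 for the combination. Tnfaip3 was at 0.29 (-0.17 to 0.80) in J2 with DMSO and 1.97 (1.71 to 2.48) with the combination, and at 0.06 (-0.79 to 0.65) and 2.62 (2.37 to 3.13) in Z22. The ratio of this gene to IgG was thus within counting error of the all-gene centre in both DMSO libraries. The median over the 9 genes ran from 0.61 with ADAR1i-124 to 1.43 with the combination in J2, and from 0.61 with ADAR1i-124 to 2.10 with the combination in Z22. With 1 IgG library these ratios have no replicate.

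**Figure D5:**
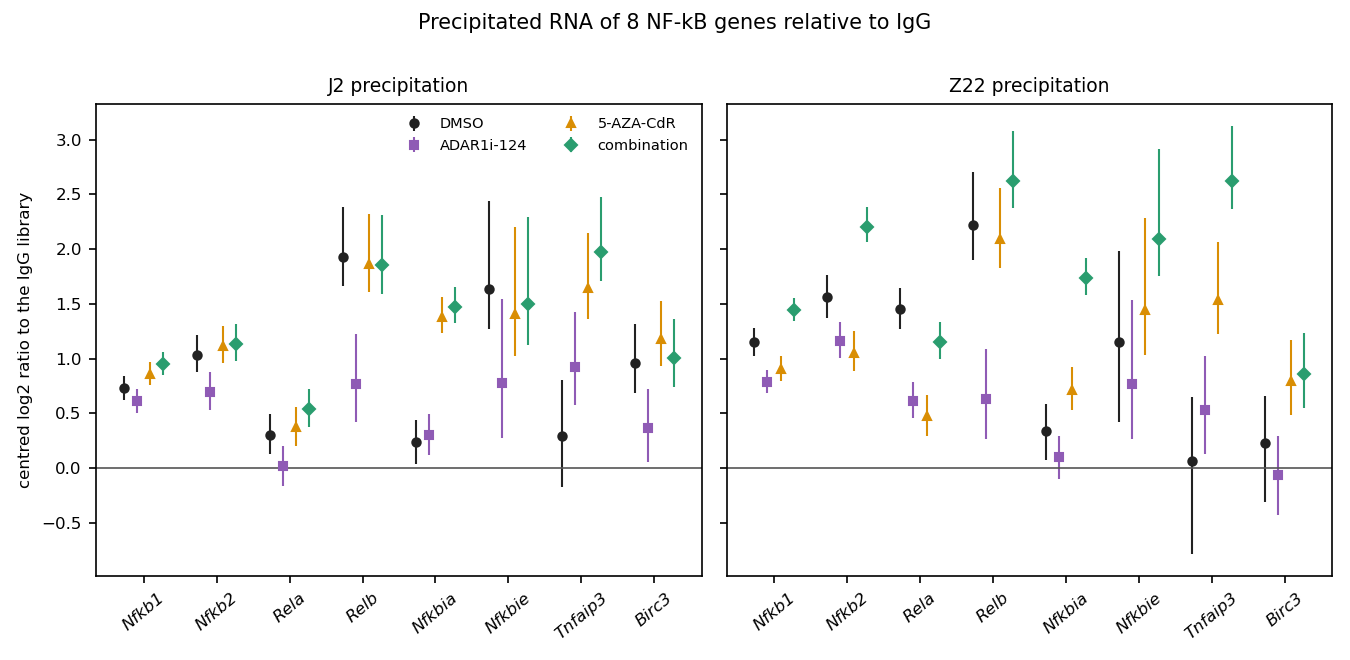
Centred log2 ratio of the J2 (left) and Z22 (right) libraries to the IgG library for 8 genes; marker shape and colour give the treatment (black circles DMSO, purple squares ADAR1i-124, orange triangles 5-AZA-CdR, green diamonds combination), bars are 95% counting intervals and 0 is the median of all genes. Relb with DMSO is at 1.93 in J2 and 2.22 in Z22, and Tnfaip3 with the combination at 1.97 and 2.62.

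The kinds of library were compared by pairing libraries of 1 treatment, with edgeR's quasi-likelihood test over all genes and treatment as a block. Between Z22 and J2, 4 pairs, 0 of the 9 genes passed an adjusted p of 0.05 and so did 0 of 13898 genes, 0% higher and 0% lower, while 3062 had an unadjusted p under 0.05 and DESeq2 called 915. At an unadjusted p under 0.05 were 2 of the 9, Rela and Birc3, and DESeq2 called 0 of the 9. Rela had the largest difference, 0.60 ± 0.22 (log2, SE; edgeR adjusted p = 0.173), and was higher in Z22 in each of the 4 pairs, by 1.13 for DMSO, 0.56 for ADAR1i-124, 0.10 for 5-AZA-CdR and 0.60 for the combination. Birc3 was lower in Z22 in each pair, by -0.76, -0.46, -0.39 and -0.17, with an estimate of -0.46 ± 0.20 (edgeR adjusted p = 0.223). Nfkb2 was at 0.49 ± 0.22 (edgeR adjusted p = 0.239). Icam1 was under the filter of this test.

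Between J2 and total RNA, 3 pairs without the combination, 0 of the 9 genes passed, against 0.0212% of 14142 genes higher and 0% lower. Over all genes 1602 had an unadjusted p under 0.05 and DESeq2 called 432, and of the 9 genes 1, Nfkbia, was under 0.05 unadjusted and DESeq2 called 0. The estimate for Nfkbia was -0.72 ± 0.24 (edgeR adjusted p = 0.37) and that for Tnfaip3 -0.81 ± 0.34 (edgeR adjusted p = 0.451), both lower in J2 in each of the 3 pairs. For Tnfaip3 the DMSO pair, at -0.14 (-0.60 to 0.24), was within counting error. Birc3 was also lower in each pair, by -0.33, -0.55 and -0.57, each beyond counting error. Nfkb2, Rela, Relb and Nfkbie turned direction between pairs. The J2 to total ratio of Nfkb2 was 0.99 for DMSO, -1.25 for ADAR1i-124 and -0.14 for 5-AZA-CdR, and that of Relb was 1.17, -1.32 and -0.09. Rela, at 0.20, -1.42 and -0.62, had the same order of pairs, and Nfkbie was at 0.91, -0.65 and -0.85. Nfkb1 varied least, at -0.21, -0.38 and -0.21. Without the DMSO pair the estimate for Nfkb2 was -0.68 and for Relb -0.70, and without the ADAR1i-124 pair 0.44 and 0.56.

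Lastly, the genes were compared by their pattern over 11 libraries (3 of total RNA, 4 of J2, 4 of Z22), on log2(CPM + 0.5) with each library set to its median gene and each gene centred within its kind of library. The points share the depth and composition of their libraries, and no test was made. Among the 7 genes of the 9 that averaged 10 CPM or more, Nfkbia and Tnfaip3 were most alike (Pearson r = 0.907), followed by Nfkb2 and Rela (0.894). The least alike were Rela and Birc3 (0.141). Among all 8874 genes that averaged 10 CPM or more, the 3 most like Rela were Zswim4, Fam83h and Zdhhc18 (0.992, 0.987 and 0.978). Those most like Birc3 were the complement gene C3 (0.982), F11r (0.969) and Stxbp3 (0.961). For Nfkbia they were Wbp1l, Anxa11 and Plpp3 (0.98, 0.969 and 0.966), and for Tnfaip3 Exoc1, Clptm1 and Syt7 (0.976, 0.964 and 0.957). Nfkb1 was most like Zkscan1, Atg14 and Alg1 (0.917, 0.9 and 0.9). Nfkb2 was most like Vps18, Mt1 and Plk3 (0.948, 0.943 and 0.941), and Relb like Magi2, Stk11ip and Riok3 (0.964, 0.955 and 0.943). None of the 9 was among the 3 genes most like another of the 9.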

How the data were processed

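The authors mapped paired reads of 13 libraries to GRCm38/mm10 with STAR in snakePipes 2.8.0 and deposited raw counts per gene, without normalization, in 1 table of 54532 genes. The counting tool and strand setting are not given in the sources used here. Groups followed the sample labels. Identifiers matched to GENCODE GRCm38 gave a symbol to 54495 genes and none to 37. Counts were divided by the library total (CPM), 0.5 CPM was added before log2, and changes were centred on the median of genes averaging 1 CPM or more. Exact binomial and Poisson 95% intervals cover counting error only, since without molecular identifiers reads are no independent molecules, and 3 counts, 0.0868 to 0.367 CPM in the 12 libraries used, is the smallest number taken as detected. Paired fits used edgeR 4.0.16 with TMM factors, a treatment block and Benjamini-Hochberg adjustment, with DESeq2 1.42.0 as an alternative, in R 4.3.3. Libraries paired by treatment may come from separate cultures, and p-values measure only the spread between these libraries. Python 3.11.15 with numpy 2.4.6, pandas 2.3.3, scipy 1.17.1 and matplotlib 3.10.9 made the rest. The scripts were tested on simulated counts.

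All 9 genes were named. Of the 45 pathway genes, those past 2-fold in total RNA averaging 1 CPM or more were named, at most 8 per direction, and for likeness the 3 genes with the highest Pearson r. Tnf, pathway genes named in precipitated RNA, Ddx3y, Xist and Gm42418 were named after their values were seen, and the comparisons of the combination with 5-AZA-CdR were added then. The 9 genes and the lists were chosen with earlier results of these data known. Alternatives covered scaling, pseudocounts of 0.1 and 2 CPM, filters, tools and left-out pairs.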

Additional observations from a re-analysis of the deposited data

Results flagged for a closer look

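Centred values of 5 genes went opposite ways with ADAR1i-124 in total and precipitated RNA, each beyond counting error, as did 42% of 12344 genes, against 5 of the 8 genes averaging 1 CPM or more in each kind of library. The centred log2 changes in total RNA, J2 and Z22 were 0.082, -0.12 and -0.39 for Nfkb1, 1.93, -0.34 and -0.43 for Nfkb2, 1.36, -0.29 and -0.87 for Rela and 1.36, -1.16 and -1.62 for Relb. Nfkbie was at 0.72 in total RNA and -0.87 in J2. With 5-AZA-CdR, Nfkb1 was at 0.13 in total RNA, 0.12 in J2 and -0.30 in Z22, Nfkb2 at 1.21 in total RNA and -0.56 in Z22, and Rela at 0.88 and -1.03. That is 3 of the 8 genes, against 44% of 12951 genes. Several of these directions rest on the centring, by 0.81 and 1.06, against the Z22 DMSO library: on library totals the Z22 values with ADAR1i-124 were 0.42 for Nfkb1, 0.38 for Nfkb2, -0.06 for Rela and -0.81 for Relb, and those with 5-AZA-CdR were 0.76 for Nfkb1, 0.50 for Nfkb2 and 0.03 for Rela. Nfkb1 in total RNA with ADAR1i-124 was at -0.0095 on library totals. Ddx3y turned direction between the kinds of library as well, from 3.35 to 48.9 CPM in total RNA and from 26.4 to 1.46 CPM in J2, and with 5-AZA-CdR it was at 36.7 CPM in total RNA and 1.35 CPM in J2. Its part in these differences was not tested. With 1 library per condition the difference between kinds of library was not tested.

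The total RNA library of the combination, left out of the comparisons because its counts follow the other strand, held 8 counts of Nfkb1, 6 of Nfkb2 and 6 of Nfkbia, above the 3 counts taken as detected.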

How the results depend on the processing

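In total RNA and J2 RNA, the counts of the 9 genes past 2-fold and their medians stayed within 1.5 times the main count and within the interval of the main median under every scaling, pseudocount and filter tried, as did the medians against IgG. Those of Z22 against DMSO or 5-AZA-CdR did not. On library totals without centring, the median of the 9 was 0.40 for ADAR1i-124, 1.30 for 5-AZA-CdR and 1.48 for the combination, each against DMSO, with 5 and 8 of the 9 past 2-fold in the last 2. Rela with 5-AZA-CdR then turned from -1.03 to 0.0256. Against 5-AZA-CdR the combination had 0 past 2-fold and a median of 0.48. The ADAR1i-124 median was -0.20 with TMM factors, 0.0063 on totals without the 20 genes of highest share and 0.0524 centred over all genes with a count. Without those 20 genes the median was 0.86 with 5-AZA-CdR, and 6 of 9 were past 2-fold with the combination. A pseudocount of 2 CPM, or centring over genes with at least 5 CPM, left 1 of 9 with 5-AZA-CdR.

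Genes called between Z22 and J2 numbered 915 with DESeq2, 1474 without a filter and 0 to 849 with 1 pair left out, 849 without the DMSO pair. Between J2 and total RNA they numbered 432 with DESeq2, 555 without a filter, 0 without the treatment block and 2 to 503 with 1 pair left out, 503 without the DMSO pair. The treatment block is the only pairing, since the labels give no replicate numbers. None of the 9 genes was called in any of these fits, but Icam1 was under the filter of the main fits and so not tested there. Depth limits Icam1, with 1 to 4 counts in the libraries without 5-AZA-CdR.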
